A study of Mus musculus with 18 samples.

Results

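The respiratory chain genes encoded in the nucleus were followed in mouse acute myeloid leukemia (AML) treated with CX-5461, which inhibits RNA polymerase I, the enzyme that transcribes ribosomal DNA. The members were the genes whose symbols begin with Nduf and a subunit letter and number (complex I), Sdha to Sdhd (complex II), Uqcr (complex III), Cox4 to Cox8 (complex IV) or Atp5 (complex V), without pseudogene names. A total of 80 such genes were found among the 13787 genes present in any of the 3 deposited tables. They comprised 37 genes of complex I, 4 of complex II, 8 of complex III, 14 of complex IV and 17 of complex V. Each table held 79 of them and 78 were in all 3, since Cox6a2 was listed for p53null AML alone and Cox7a1 for p53WT AML alone. A further 9 gene records that fitted the rule, among them Cox4i2, Cox8b, Cox8c and Ndufa4l2, were not analysed here.

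The respiratory chain sits in the inner mitochondrial membrane. Complexes I and II take electrons from NADH and succinate and pass them to ubiquinone, complex III hands them to cytochrome c, and complex IV (cytochrome c oxidase) transfers them to oxygen. Complexes I, III and IV pump protons while doing so, and complex V (ATP synthase) uses the gradient to make ATP. Most subunits are encoded in the nucleus and some in mitochondrial DNA, and some myeloid leukemia cells are known to depend on this pathway.

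The leukemias carried MLL/ENL and Nras and were either p53null or p53WT. They grew after syngeneic transplantation into C57BL/6 mice, which were treated once disease was established, and GFP-positive cells were then sorted from bone marrow by FACS. The 18 samples formed 6 groups of 3: CX-5461 and vehicle in p53null AML after 10 h, CX-5461 and vehicle in p53WT AML after 72 h, and CX-5461 and vehicle in p53WT AML after 10 h. The ages of the mice, the dose and the route were not given in the sources used here, and nothing states that each sample came from its own mouse, so p-values measure only the spread between these samples. Read counts were held for the 6 libraries of the p53WT groups at 10 h, and for the other groups only the authors' fold changes, mean levels and FDR. In the authors' deposited tables the mean level of Trp53, which encodes p53, was 61.5 CPM (counts scaled to the size of the library) in p53null AML, 163 CPM in p53WT AML at 72 h and 169 CPM in p53WT AML at 10 h. Since these are sorted bulk samples, fewer cells of a type and less RNA per cell cannot be told apart.

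The CX-5461 libraries of p53WT AML at 10 h held 21578685 to 37244725 counts and the vehicle libraries 22090394 to 48118513. Member genes took 0.852%, 0.866% and 0.871% of the counts in CX-5461 libraries 1, 2 and 3, and 0.876%, 0.880% and 0.832% in vehicle libraries 1, 2 and 3. Genes of the myeloid progenitor identity of the leukemia, such as Mpo, Elane, Kit and Hoxa9, were all measured, 12 of 12. Their summed level was 18452 to 18532 CPM with CX-5461 and 14794 to 18303 CPM with vehicle. Their log2 fold changes, CX-5461 over vehicle, had a median of 0.13, with 8 positive and 4 negative. Among the negative were Itgam (-0.57) and Ptprc (-0.41), which are on the list but are not particular to progenitors. Of the 12, Ptprc alone was called, as lower, in the edgeR quasi-likelihood test (adjusted p 0.0344), against 4.32% of all genes called lower. The vehicle libraries differed among themselves in erythroid and neutrophil maturation genes. The summed level of 17 measured erythroid genes of 22 listed was 473, 685 and 584 CPM in the CX-5461 libraries, against 6010, 20155 and 796 CPM in vehicle libraries 1, 2 and 3. That of 17 neutrophil maturation genes of 17 was 4912, 5922 and 5004 CPM with CX-5461, against 12863, 22799 and 10518 CPM with vehicle. No measured marker of either list had 0 counts in any library.

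After 10 h of CX-5461 in p53WT AML, the nuclear respiratory chain genes stayed close to their vehicle levels. A single member passed the test, Cox6b2 of complex IV, which rose 1.35-fold in the edgeR quasi-likelihood test. None was called lower by that test. The median log2 fold change, CX-5461 over vehicle, was -0.06 over the 79 members and 0.00 over all 12679 genes, and the members ranged from -0.32 to 0.43. In the quasi-likelihood test of edgeR, Benjamini-Hochberg adjusted over all genes, 1 of 79 members (1.27%) had an adjusted p under 0.05, against 8.1% of all genes. The share of all genes was 3.78% higher and 4.32% lower, against 1 and 0 members. DESeq2 called 4 members (Cox6b2 and Atp5g1 higher, Cox7a2l and Ndufv3 lower), against 18.2% of all genes, the exact test of edgeR 2 (Cox6b2 higher, Ndufv3 lower), against 13.5%, limma-voom 1, against 5.71%, and 1 was called in the authors' deposited table, against 10.4%. At an unadjusted p under 0.05, 2 members were higher and 5 lower, against 14.7% and 16.7% of all genes. The 95% interval of the fold change lay within 1.5-fold in either direction for 78 of 79 members, the exception being the barely detected Cox7a1, and for 72.4% of all genes. Small differences leaned downward, with 59 of 79 values negative, which is 74.7% of the members against 49.2% of all genes.

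The lean changed with the vehicle libraries included and was absent without vehicle library 2. Relative to the mean of the CX-5461 libraries, the median member stood 0.04 log2 units higher in vehicle library 1, 0.18 higher in vehicle library 2 and 0.05 lower (-0.05) in vehicle library 3. The erythroid median in the same vehicle libraries was 4.904, 6.92 and 2.20 above the CX-5461 mean, and the neutrophil median 1.63, 2.48 and 0.98. Among the vehicle libraries, the one with the most erythroid and neutrophil RNA thus also had the most respiratory chain RNA, and the one with the least had the least. Without vehicle library 2 the median log2 fold change of the members was 0.01 and 37 of 79 were negative. Without vehicle library 1 it was -0.06 with 60 negative, and without vehicle library 3 it was -0.11 with 71 negative. With the erythroid level of each library as a covariate in the edgeR fit it was 0.13 with 6 of 79 negative, and with the neutrophil level 0.17 with 4 negative. Under these covariates 14 and 20 members were higher at an unadjusted p under 0.05, against 6.04% and 7.0% of all genes, and 0 members passed the adjusted quasi-likelihood test, as did only 19 of all 12679 genes, so that count says nothing about the members. All CX-5461 libraries lay below all vehicle libraries for 16 of 17 erythroid and 13 of 17 neutrophil genes, against 19.1% of all genes. Each covariate thus followed treatment closely, and these fits cannot separate it from treatment. Whether the erythroid and neutrophil RNA came from admixed cells or from the leukemia was not tested. Its part in the members' values was not tested either.

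**Figure D1:**
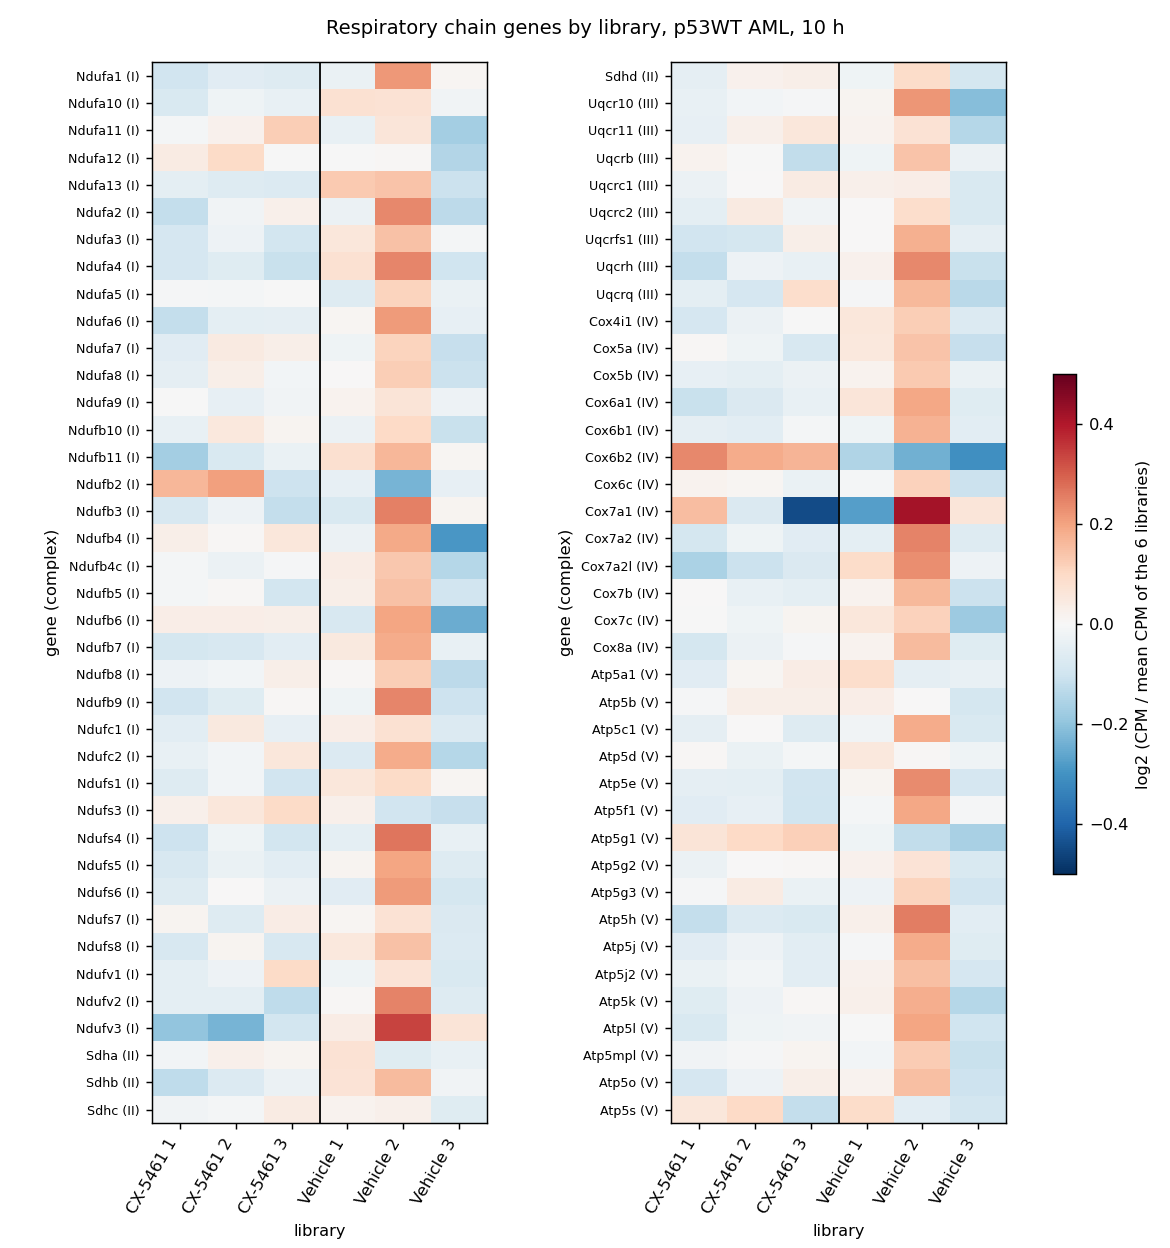
Each cell gives the log2 ratio of a member's CPM, for 78 members, in one library to its mean over all 6, in p53WT AML at 10 h, with CX-5461 libraries left of the line and vehicle libraries right of it. Vehicle library 2 is red for most genes, while Cox6b2 and Atp5g1 are higher in every CX-5461 library than in every vehicle library.

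The complexes had similar medians. The median log2 fold change was -0.06 for 37 complex I genes, 0.01 for 4 complex II genes, -0.03 for 8 complex III genes, -0.08 for 13 complex IV genes and -0.05 for 17 complex V genes. In complex I the 7 genes of the catalytic core had a median of -0.10. The other 30, mostly genes of accessory subunits but with Ndufa4 among them, had a median of -0.06. All CX-5461 libraries were above all vehicle libraries for 2 of the 79 members, against 19.9% of all genes, and below them for 13, against 19.1% of all genes. Of these 13, 9 were complex I genes, 1 complex II, 1 complex IV and 2 complex V.

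Summed over its genes, each complex gave nearly the same level in both groups. Complex I summed to 2082, 2136 and 2134 CPM in CX-5461 libraries 1, 2 and 3, against 2203, 2418 and 2081 CPM in vehicle libraries 1, 2 and 3. Complex IV summed to 1332, 1349 and 1359 CPM with CX-5461, against 1400.1, 1531 and 1305 CPM with vehicle. Complex V summed to 3530, 3627 and 3612 CPM with CX-5461, against 3690, 3774 and 3444 CPM with vehicle. In each of these the CX-5461 values lay inside the range of the vehicle values. The sums of complex II were 595 to 617 CPM with CX-5461 and 589 to 628 CPM with vehicle, and those of complex III 825 to 859 CPM with CX-5461 and 803 to 927 CPM with vehicle. The log2 ratios of the group means were -0.08, -0.01, -0.03, -0.07 and -0.02 for complexes I to V. Exact two-sided permutation tests over the 6 libraries gave p = 0.4, 0.8, 0.7, 0.5 and 0.8, where the smallest p this design allows is 0.1. The vehicle libraries were more scattered, with a coefficient of variation of 7.65% for complex I and 8.04% for complex IV, against 1.45% and 1.03% in the CX-5461 libraries.

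**Figure D2:**
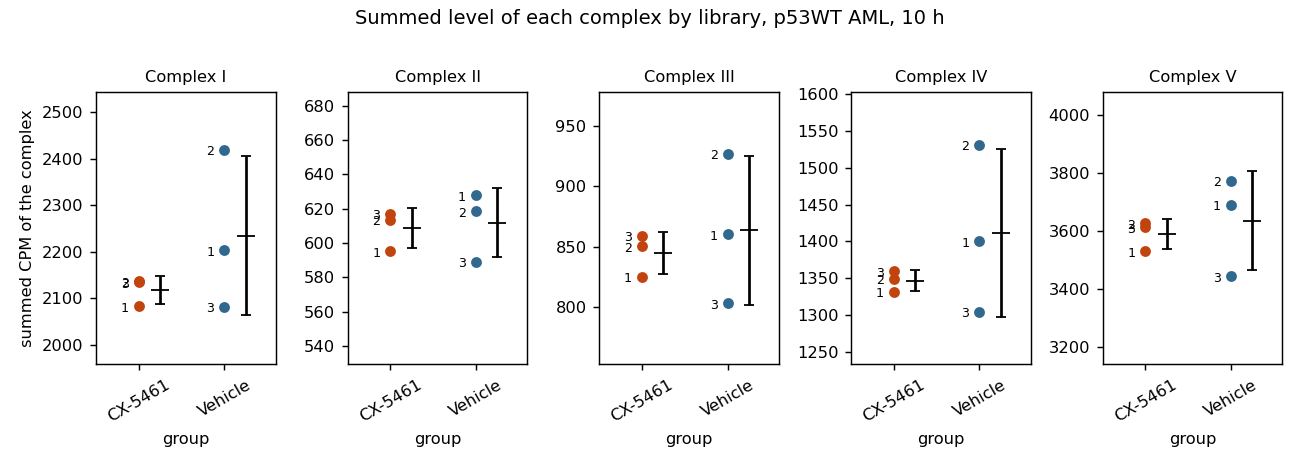
Summed CPM of the genes of each complex by library in p53WT AML at 10 h, with numbered points for libraries and bars for mean ± SD (n = 3), on axes that do not start at 0. The CX-5461 points cluster tightly within the wider vehicle range in all 5 complexes.

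Complex I oxidises NADH. Ndufv3 and Ndufb11, which encode accessory subunits, were among its members with the smallest p. Ndufv3 had 42.6, 41.6 and 45.9 CPM in the CX-5461 libraries, against 50.1, 61.7 and 51.0 CPM in the vehicle libraries. The groups did not overlap, and vehicle library 2 stood above the other two. Its log2 fold change was -0.32 (SE 0.0915), with an edgeR quasi-likelihood adjusted p of 0.0677, while DESeq2 (adjusted p 0.0183) and the edgeR exact test (adjusted p 0.0416) called it lower. Ndufv3 was not called in the authors' deposited table (FDR 0.145). Ndufb11 averaged 100.1 ± 4.77 CPM with CX-5461 and 113 ± 6.02 CPM with vehicle (SD, n = 3 each). Its log2 fold change was -0.18, and its adjusted p in the same edgeR test was 0.0962. Ndufa4, named for complex I but now assigned to complex IV, averaged 103 ± 1.83 CPM with CX-5461 and 115 ± 13.7 CPM with vehicle, a log2 fold change of -0.17 that did not pass.

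Complex II, succinate dehydrogenase, is also an enzyme of the tricarboxylic acid (TCA) cycle, and all its subunits are nuclear. Sdha, the flavoprotein gene, had 285, 293 and 289.9 CPM in the CX-5461 libraries, against 302, 275 and 280.0 CPM in the vehicle libraries. The membrane anchor genes Sdhc and Sdhd averaged 98.5 ± 2.21 and 149 ± 4.13 CPM with CX-5461, against 97.7 ± 3.28 and 148 ± 9.30 CPM with vehicle. The groups overlapped for these 3 genes, whose log2 fold changes were 0.02, 0.01 and 0.01. The iron-sulfur subunit gene Sdhb had 70.1, 72.9 and 75.1 CPM with CX-5461, against 80.2, 85.3 and 75.7 CPM with vehicle. All its CX-5461 values were below all vehicle values, but by little, and the log2 fold change of -0.15 (SE 0.0597) had an edgeR quasi-likelihood adjusted p of 0.148 after Benjamini-Hochberg adjustment.

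Complex III passes electrons from ubiquinol to cytochrome c. All 8 of its genes overlapped between the groups. Uqcrfs1, which encodes the Rieske iron-sulfur protein, had 97.5, 98.2 and 107 CPM with CX-5461, against 104, 118 and 101 CPM with vehicle. The hinge protein gene Uqcrh averaged 88.7 ± 3.06 CPM with CX-5461 and 96.2 ± 11.9 CPM with vehicle, and the subunit gene Uqcrb 60.6 ± 3.10 CPM with CX-5461 and 63.5 ± 4.39 CPM with vehicle (SD, n = 3 each). The log2 fold changes of these 3, the smallest in p, were -0.10, -0.12 and -0.07, and the edgeR quasi-likelihood adjusted p was 0.388 or higher after Benjamini-Hochberg adjustment.

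Complex IV has several subunits that come in tissue isoforms, and here an isoform gene stood out. Cox6b2 encodes the form of subunit VIb known from testis, and Cox6b1 the form found in most tissues. Cox6b2 had 58.1, 55.9 and 55.3 CPM in the CX-5461 libraries, against 44.3, 41.6 and 39.7 CPM in the vehicle libraries. The groups were far apart relative to their spread. The log2 fold change was 0.43 (SE 0.0582), the 95% interval 0.29 to 0.57 and the edgeR quasi-likelihood adjusted p 0.0213 after Benjamini-Hochberg adjustment. Without vehicle library 1, 2 or 3 Cox6b2 was still called. Without CX-5461 library 1, 2 or 3 its log2 fold change was 0.41, 0.43 and 0.44, with edgeR adjusted p of 0.147, 0.143 and 0.0964, in fits that called only 23 to 25 of all genes. Cox6b1 had 137, 136 and 141 CPM with CX-5461, against 139, 159 and 136 CPM with vehicle, and the groups overlapped (log2 fold change -0.07, adjusted p 0.496 in the same edgeR test). Per kilobase of exon in GENCODE M21, Cox6b2 stood at 76.1 CPM with CX-5461 and 56.5 CPM with vehicle, and Cox6b1 at 223 CPM with CX-5461 and 235 CPM with vehicle, so the testis form was the lower of the pair in both groups.

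The sequences upstream of both genes are shown because 1 of these isoforms was called and the other was not; the difference between their fold changes was not tested. They are the 250 bases before the annotated start from the RefSeq promoter table (GRCm38.p6, a later build than that of the counts), Cox6b2 at chr7:4753095-4753344 and Cox6b1 at chr7:30626115-30626364, both on the minus strand. Capitals mark letters of 3 motifs associated with respiratory chain promoters, searched exactly on both strands: CGCATGC (the core of the NRF1 motif), CCGGAAG (GABPA and other ETS factors) and AAGATGG (YY1).
Cox6b2: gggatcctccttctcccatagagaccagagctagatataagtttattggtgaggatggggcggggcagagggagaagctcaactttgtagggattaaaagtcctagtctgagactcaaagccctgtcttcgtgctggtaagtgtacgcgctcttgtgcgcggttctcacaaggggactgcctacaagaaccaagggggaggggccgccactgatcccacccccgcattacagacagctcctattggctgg
Cox6b1: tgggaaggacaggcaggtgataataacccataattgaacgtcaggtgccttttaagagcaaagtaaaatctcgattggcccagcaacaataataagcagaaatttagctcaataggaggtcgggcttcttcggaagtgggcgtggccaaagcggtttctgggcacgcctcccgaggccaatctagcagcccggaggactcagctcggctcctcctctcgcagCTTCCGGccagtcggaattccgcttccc
The Cox6b1 window holds the GABPA letters on the opposite strand, with the first base 28 bases before the start, and the Cox6b2 window holds none of the 3 motifs. In windows from 250 bases before to 50 after the start, the NRF1 letters were in 11 of 64 member promoters (17.2%, against 4.01% of 27025 genes), the GABPA letters in 16 of 64 (against 9.93%) and the YY1 letters in 10 (15.6%, against 7.28%). A match describes the letters alone and no factor's binding was measured.

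No other isoform gene of complex IV passed the edgeR test. Cox7a2l is a gene related to Cox7a2. It had 105, 109 and 111 CPM in the CX-5461 libraries, against 125, 137 and 115 CPM in the vehicle libraries, without overlap. Its log2 fold change of -0.22 (SE 0.0712) had an edgeR quasi-likelihood adjusted p of 0.0921, and DESeq2 called it lower (adjusted p 0.0428). Cox7a2l was not called in the authors' deposited table (FDR 0.363). Cox7a2, the widely expressed form, averaged 107 ± 2.45 CPM with CX-5461 and 115 ± 14.4 CPM with vehicle. Cox7a1, the heart and muscle form, averaged 1.08 ± 0.221 CPM with CX-5461 and 1.24 ± 0.295 CPM with vehicle, which is near the limit of what these libraries detect. Cox6a1 averaged 131 ± 3.41 CPM with CX-5461 and 144 ± 12.7 CPM with vehicle (log2 fold change -0.14), and Cox4i1 231 ± 6.66 CPM with CX-5461 and 244 ± 16.4 CPM with vehicle (-0.08). Cox8a averaged 133 ± 3.80 CPM with CX-5461 and 140.3 ± 10.9 CPM with vehicle (-0.08).

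Complex V makes ATP, and its membrane rotor is a ring of c subunits encoded by 3 genes whose mature proteins are identical. Of the 3, Atp5g1 had the smallest p at 10 h. It had 99.8, 102 and 104 CPM in the CX-5461 libraries, against 94.0, 87.6 and 85.4 CPM in the vehicle libraries, without overlap. The log2 fold change was 0.20 (SE 0.0523), with an edgeR quasi-likelihood adjusted p of 0.0606, and DESeq2 called it higher (adjusted p 0.0304). Atp5g1 was not called in the authors' deposited table (FDR 0.4015). Atp5g2 averaged 177 ± 2.32 CPM with CX-5461 and 178 ± 9.09 CPM with vehicle, and Atp5g3 179 ± 4.75 CPM with CX-5461 and 179 ± 13.1 CPM with vehicle (SD, n = 3 each). Both overlapped between groups, with log2 fold changes of -0.01 and 0.00 that took the other sign under some settings. Of the peripheral stalk genes, Atp5h averaged 118.5 ± 2.16 CPM with CX-5461 and 133 ± 15.2 CPM with vehicle, and Atp5f1 229 ± 4.75 CPM with CX-5461 and 250.2 ± 20.5 CPM with vehicle. Their log2 fold changes of -0.17 and -0.13 had edgeR adjusted p of 0.201 and 0.226. The catalytic subunit gene Atp5b, named after its values were seen, had 1034, 1061 and 1060 CPM with CX-5461, against 1062, 1039 and 978 CPM with vehicle.

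The promoters of Atp5g1 and Atp5g2 are printed as those of genes for the same mature protein, 1 without and 1 with overlap between the groups. The difference between their fold changes was not tested. They are likewise the 250 bases before the start in RefSeq, GRCm38.p6, minus strand, Atp5g1 at chr11:96075632-96075881 and Atp5g2 at chr15:102671048-102671297, with the same motifs in capitals.
Atp5g1: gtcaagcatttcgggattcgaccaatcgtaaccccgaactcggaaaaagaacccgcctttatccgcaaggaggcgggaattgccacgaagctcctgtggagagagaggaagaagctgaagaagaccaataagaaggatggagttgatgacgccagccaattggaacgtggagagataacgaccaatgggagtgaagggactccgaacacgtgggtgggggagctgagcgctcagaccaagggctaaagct
Atp5g2: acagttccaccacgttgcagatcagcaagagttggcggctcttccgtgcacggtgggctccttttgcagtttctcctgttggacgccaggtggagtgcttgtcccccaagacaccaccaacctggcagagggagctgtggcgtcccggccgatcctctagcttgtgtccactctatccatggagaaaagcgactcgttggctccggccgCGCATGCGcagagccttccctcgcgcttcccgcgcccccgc
The Atp5g2 window holds the NRF1 letters on both strands at overlapping positions, and the Atp5g1 window holds none of the 3 motifs.

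**Figure D3:**
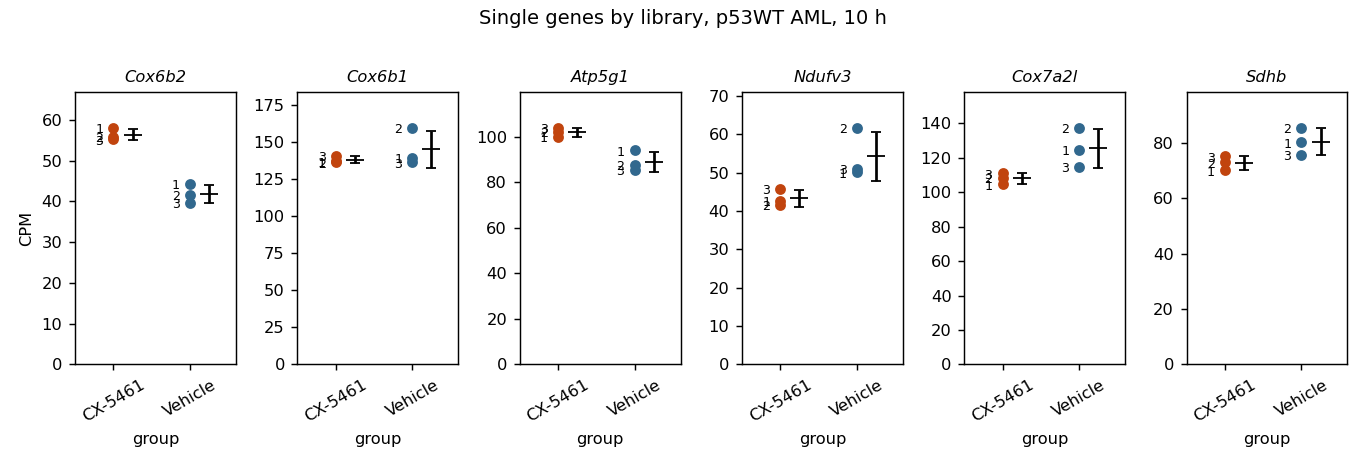
CPM of 6 members by library in p53WT AML at 10 h, with numbered points for libraries and bars for mean ± SD (n = 3). Cox6b2 and Atp5g1 are higher in all CX-5461 libraries, Ndufv3, Cox7a2l and Sdhb are lower in all of them, and Cox6b1 overlaps.

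Few genes that serve the chain outside the name rule passed the test, and those that did were higher with CX-5461. Of 48 measured assembly factor genes of 51 listed, 2 rose and 0 fell, with a median log2 fold change of 0.05, a share near the 3.78% of all genes called higher. Ndufaf4, a complex I assembly factor, had 39.1, 37.1 and 33.7 CPM in the CX-5461 libraries, against 28.4, 24.7 and 26.7 CPM in the vehicle libraries (log2 fold change 0.46, SE 0.0826). Cox10, which makes heme for complex IV, averaged 30.5 CPM with CX-5461 and 25.5 CPM with vehicle (0.26). Of 16 measured regulators of mitochondrial biogenesis of 17 listed, 3 rose and 0 fell, at a median of 0.13, against 3.78% of all genes higher and 4.32% lower. Pprc1, which encodes a coactivator of the PGC-1 family, had 110.3, 102 and 102 CPM with CX-5461, against 73.7, 60.2 and 78.9 CPM with vehicle (0.56, SE 0.1002). Yy1, a zinc finger transcription factor gene, averaged 149.5 CPM with CX-5461 and 131 CPM with vehicle (0.19), and Tfb2m, a transcription factor gene of mitochondrial DNA, rose by 0.29. For Ndufaf4, Cox10, Pprc1, Yy1 and Tfb2m the groups did not overlap and the edgeR quasi-likelihood adjusted p were 0.0344, 0.0461, 0.0344, 0.0444 and 0.0461 after Benjamini-Hochberg adjustment. In the authors' deposited table Ndufaf4 and Pprc1 had an FDR of 0.0132 and 0.0026, but Cox10 and Yy1 of 0.237 and 0.39. Tfb2m is outside the rule for named genes and was named to complete the count.

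Of 22 measured genes of the TCA cycle and pyruvate dehydrogenase, 1 rose, against 3.78% of all genes called higher. This was Idh3a of NAD-dependent isocitrate dehydrogenase, from a list with a median of 0.01. It averaged 131 CPM with CX-5461 and 112 CPM with vehicle (log2 fold change 0.23, edgeR quasi-likelihood adjusted p 0.0439). In the authors' deposited table Idh3a was not called (FDR 0.275). The pyruvate carboxylase gene Pcx had a log2 fold change of -0.41 and an adjusted p of 0.0694 in the same edgeR test. The list of 17 electron carrier genes and further subunits also holds Ndufa4, counted above among the members. Of these 17, 0 passed the edgeR quasi-likelihood test, against 8.1% of all genes. At an unadjusted p under 0.05, 5 were higher, against 14.7% of all genes. Ndufab1, the mitochondrial acyl carrier protein gene, and Cycs, which encodes cytochrome c, had log2 fold changes of 0.19 and 0.21 with edgeR adjusted p of 0.05002 and 0.0576, both just above the threshold. Of the 13 subunits encoded by mitochondrial DNA, 0 were called, against 8.1% of all genes, with a median of -0.09. At an unadjusted p under 0.05, 0 were higher or lower, against 14.7% and 16.7% of all genes. Without CX-5461 library 1, 2 or 3, and with the erythroid or neutrophil level as a covariate, 0 genes of the assembly, carrier, TCA and regulator lists were called. Those fits called only 23 to 25 and 19 of all 12679 genes, so these counts of 0 say nothing about the lists.

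The sign of the authors' fold changes could be checked on counts for p53WT AML at 10 h alone. CX-5461 over vehicle was taken as the direction in the tables of p53null AML and of 72 h as well, so every direction given for them rests on that reading. In p53null AML at 10 h no member passed the authors' test. In their deposited table, 0 of 79 had an FDR under 0.05, against 0.187% of all 12861 genes, and 0 had an unadjusted p under 0.05, against 6.07% of all genes, by the authors' own edgeR fit. The lowest FDR was 0.845. The median log2 fold change was 0.01 (all genes -0.00), with complex medians of 0.01, 0.01, 0.03, 0.03 and 0.00 for complexes I to V, and the members ranged from -0.22 (Cox6a2) to 0.22 (Atp5s). Cox6b2 had a log2 fold change of 0.10 in that table, at a mean of only 1.71 CPM. At so low a level this value says little about a response of Cox6b2. Atp5g1 had a log2 fold change of 0.00 and Ndufv3 of -0.08 in that table. Erythroid genes there, 7 measured, had a median of -0.10, and neutrophil genes -0.02, with 0 called in either list. Of the assembly, carrier, TCA and regulator lists, 0 genes were called in the authors' table for p53null AML. Whether the p53null and p53WT responses differ was not tested, since the tables were fitted separately.

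In p53WT AML at 72 h the authors' deposited table called 7 of 79 members at an FDR under 0.05, which is 8.86%, against 31.2% of all 12838 genes. Higher were Atp5g1 (log2 fold change 0.33, FDR 0.00039), Ndufv3 (0.28, FDR 0.00729), the zinc-binding complex IV subunit gene Cox5b (0.22, FDR 0.0444) and Atp5g3 (0.18, FDR 0.0466), by the authors' edgeR test. Lower were Cox6b2 (-0.61, FDR 5.87e-07), Atp5s (-0.30, FDR 0.039), which encodes a factor associated with ATP synthase, and the complex I accessory subunit gene Ndufa6 (-0.27, FDR 0.0341). The median over the members was 0.02 and that over all genes -0.01, and complex medians ran from -0.03 for complex II to 0.07 for complex III. At an unadjusted p under 0.05, 5 members were higher and 7 lower, against 39.9% of all genes in either direction. The inhibitor gene of ATP synthase, Atpif1, which is outside the name rule, had log2 fold changes of 0.22 at 72 h (FDR 0.0934) and 0.02 at 10 h in the authors' deposited tables of p53WT AML. Marker genes were also called at 72 h in the authors' table. Erythroid genes had a median of 1.26, with 12 of 18 higher, and neutrophil genes a median of 0.98, with 15 of 17 higher. The list of myeloid progenitor genes had a median of -0.28, with 2 of 12 higher and 7 lower. The 2 higher were Itgam and Ptprc, which are not particular to progenitors. The part of these 3 marker lists in the members' values at 72 h was not tested.

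Most subunits encoded by mitochondrial DNA were lower at 72 h, in the direction taken for that table. Of these 13 genes, 12 were lower and 0 higher in the authors' deposited table, against 3 lower of 79 nuclear members and 15.1% of all genes lower. The 4 higher nuclear members stand against 16.1% of all genes higher. The median log2 fold change of the 13 genes of mitochondrial DNA was -0.63, and mt-Nd3 was the exception at 0.00. The complex IV subunit genes mt-Co1 and mt-Co2 had log2 fold changes of -0.68 and -0.69 and the complex V gene mt-Atp6 of -0.59. At 10 h the median of the same 13 genes was 0.09 in p53null AML and -0.09 in p53WT AML, with 0 called in each. Assembly factor genes at 72 h had 0 higher and 5 lower of 48, at a median of -0.07, and regulators of mitochondrial biogenesis 1 higher and 3 lower of 16. The TCA list had 1 higher and 1 lower of 22, and the carrier list 0 higher and 1 lower of 17.

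Some members took opposite signs at the 2 times in p53WT AML, if the 72 h table has the direction of the 10 h table. Cox6b2 stood at -0.61 at 72 h and at 0.43 at 10 h, and Ndufv3 at 0.28 at 72 h and at -0.32 at 10 h, where Ndufv3 did not pass. Atp5g1 was positive at both, 0.33 at 72 h and 0.20 at 10 h, where it did not pass either (authors' edgeR FDR 0.4015). The difference between the times was not tested, because no counts were held for 72 h. Of 78 members in all tables, 41 had the same sign at 72 h as at 10 h in p53WT AML, and 32 had the same sign in p53null as in p53WT AML at 10 h.

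**Figure D4:**
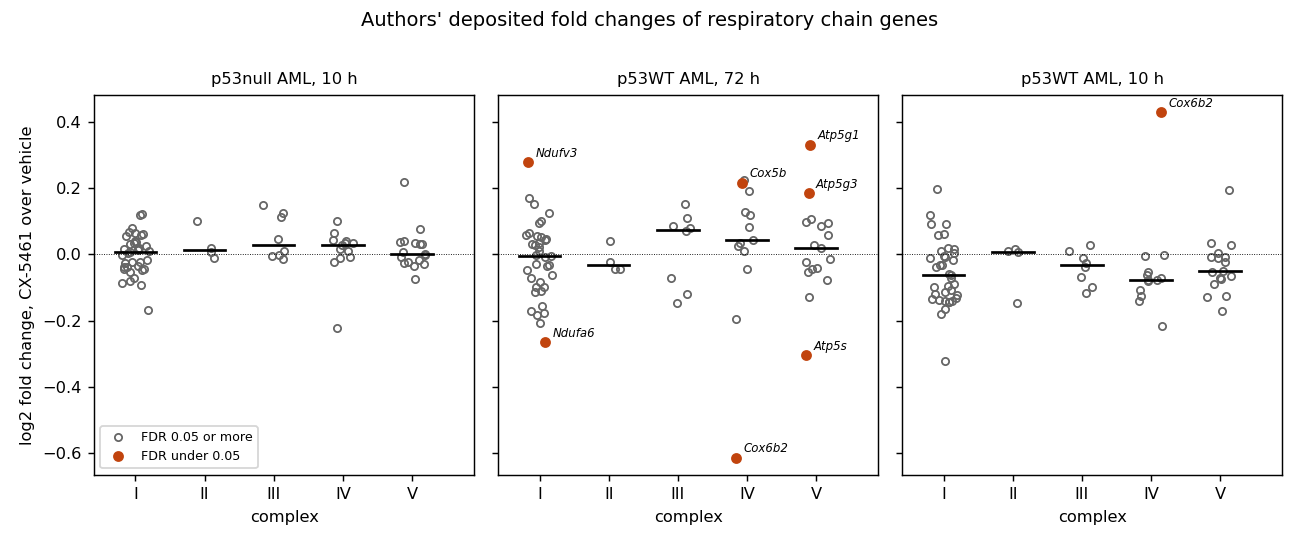
The authors' deposited log2 fold changes, CX-5461 over vehicle (a direction checked on counts in the last panel alone), of the members by complex, in panels for p53null AML at 10 h, p53WT AML at 72 h and, last, p53WT AML at 10 h, with a line for each median and filled points at an FDR under 0.05. The medians stay near 0 in all panels, and Cox6b2 is lower at 72 h and higher at 10 h.

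Mean levels of most members lay close together in the leukemias. The authors' mean CPM come from tables that were normalized separately and have no replicate error, so no test was made. Between p53null and p53WT AML at 10 h, 75 of 78 members were within 1.5-fold, and Spearman's rho across these genes was 0.94. The labels do not say whether both tables used 1 annotation. Sample titles of p53null and p53WT AML at 10 h carry different codes, and the titles at 72 h carry neither. What these codes mark is not stated, so genotype and time cannot be told apart from it. The 3 exceptions were all past 2-fold, as were 14.4% of all genes. Cox6b2 averaged 1.71 CPM in p53null AML and 49.1 CPM in p53WT AML, a log2 difference of -4.85. Atp5l, which encodes subunit g of ATP synthase, averaged 5.65 CPM in p53null AML and 60.6 CPM in p53WT AML (-3.42). Uqcrq, a complex III subunit gene, averaged 111 CPM in p53null AML and 51.3 CPM in p53WT AML (1.11).

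The later table of p53WT AML resembled the earlier more closely. Between 72 h and 10 h, 77 of 79 members were within 1.5-fold. Atp5l averaged 4.10 CPM at 72 h and 60.6 CPM at 10 h, past 2-fold as were 4.37% of all genes, and Cox6b2 averaged 28.9 CPM at 72 h and 49.1 CPM at 10 h. Outside the members, Cycs had a mean of 57.5 CPM in p53null AML, 33.9 CPM in p53WT AML at 72 h and 129 CPM in p53WT AML at 10 h. Cox6a2, the heart and muscle form of its subunit, was listed at 70.1 CPM in p53null AML and not analysed in p53WT AML. Its exons overlap Itgad in GENCODE M21, and Itgad averaged 9.47 CPM in p53null AML, 9.18 CPM in p53WT AML at 72 h and 1.49 CPM in p53WT AML at 10 h. In all, 22 members have exons that overlap another gene in that annotation, among them Atp5l, Ndufb11, Uqcrb and Atp5f1. The library kit does not mark strand, so reads of such pairs cannot be told apart, and genes with processed pseudogenes may share reads with them.

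**Figure D5:**
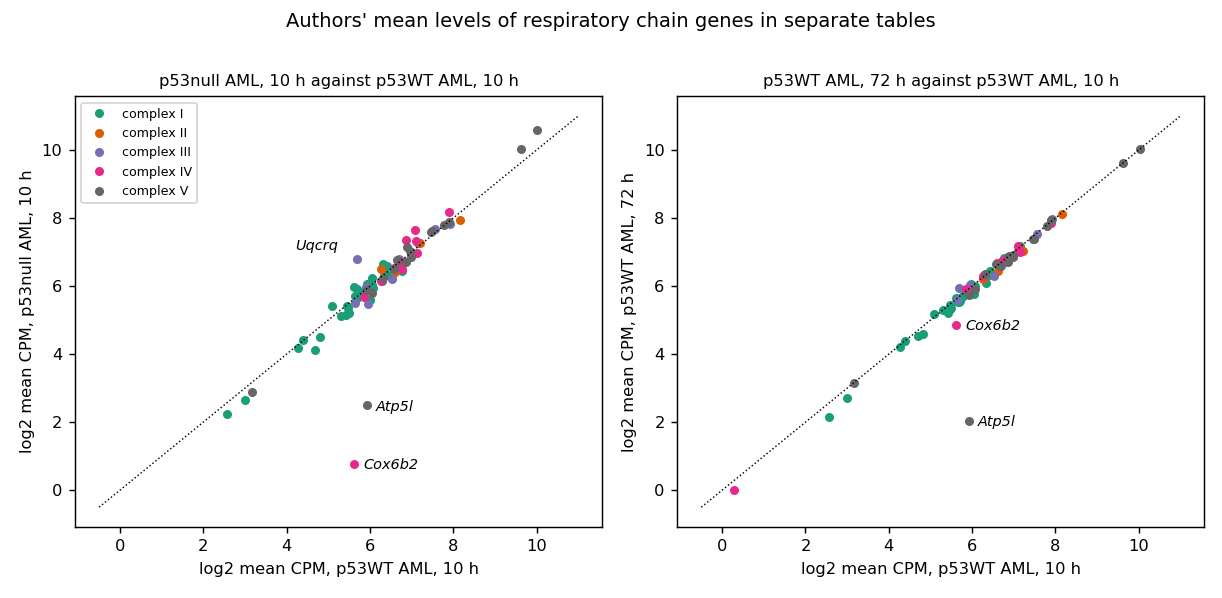
The authors' log2 mean CPM of each member in p53null AML at 10 h (left) and p53WT AML at 72 h (right), on the y axis, against p53WT AML at 10 h on the x axis, with the dotted line at equal levels. Cox6b2, Atp5l and Uqcrq leave the line on the left and Atp5l and Cox6b2 on the right.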

How the data were processed

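RNA of 18 samples was sequenced. The submitters' processing notes name edgeR, HTSeq, Bowtie and CASAVA 1.8.2 and the mm9 build, while the annotation and strand setting are not given in the sources used here. The authors deposited 3 edgeR tables with log2 fold change, log2 mean CPM, p-value and FDR per gene. The p53WT table at 10 h also held raw counts, and per the file headers its count columns name treatment and a number.

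From the counts, TMM-normalized CPM and two-sided quasi-likelihood F tests were computed with edgeR 4.0.16 in R 4.3.3, for treatment alone with 4 residual degrees of freedom. P-values were adjusted by Benjamini-Hochberg over all 12679 genes and called under 0.05. Standard errors are the fold change divided by the root of F. The script was tested on simulated data. Alternatives were RLE factors, library size alone, a mean of at least 5 CPM, covariates, left-out libraries, DESeq2 1.42.0, limma-voom 3.58.1 and the exact test. Sums were tested by exact permutation (SciPy 1.17.1).

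IDs were matched to symbols in a gene name table, 12237 of 12679 in the count table, 12366 of 12861 for p53null AML and 12362 of 12838 at 72 h. Promoters were matched for 64 of 80 members. Named genes are the 3 smallest p per complex, all Sdh genes, isoform sets with Atpif1, up to 6 members per direction called in the other tables, and the 2 smallest p of each further list. The values of 1 complex I member that this rule takes in are not reported here. Members and lists were chosen with earlier results of these data known.

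Median log2 fold changes of the other marker lists in p53WT AML at 10 h were -0.34 for 14 monocyte and macrophage genes. They were -2.05 for 4 B cell genes and -1.79 for 1 T and NK cell gene. For 3 megakaryocyte genes the median was -0.76, and for 3 stromal and endothelial genes -0.67. In this order, 2, 1, 0, 0 and 0 were called in the main edgeR test, all lower, against 4.32% of all genes. Lists of 1 to 4 genes are too short to set against that share.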

Additional observations from a re-analysis of the deposited data

How the results depend on the processing

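The number of members called in p53WT AML at 10 h was 1 with all libraries and 1 with RLE factors, library size alone, a mean of at least 5 CPM, limma-voom and the authors' table. It was 4 with DESeq2 (Atp5g1 and Cox6b2 higher, Cox7a2l and Ndufv3 lower, against 18.2% of all genes called), 2 with the edgeR exact test (Cox6b2 and Ndufv3), 0 with the erythroid or the neutrophil level as a covariate, where 19 of all genes were called, and 0 to 2 with each library left out in turn. Without vehicle library 1 Atp5g1 was called too (1678 of all genes), without vehicle library 3 Cox7a2l was (1314), and without any single CX-5461 library none was (23 to 25). The median log2 fold change of the members was 0.13 and 0.17 with the erythroid and neutrophil covariates and -0.11 to 0.01 with each library left out. The number called in the assembly, carrier, TCA and regulator lists together was 6 (8.1% of all genes called). It was 4 in the authors' table (10.4%), 5 with the edgeR exact test (13.5%), 14 with DESeq2 (18.2%) and 2 with limma-voom (5.71%). With either covariate it was 0 (19 of all genes), and with each library left out 0 to 13 (23 to 1678 of all genes). At 72 h the authors' FDR called 7 members under 0.05, against 31.2% of all genes. It called 3 under 0.01 and 11 under 0.1. No share of all genes is given here at those cutoffs, so these counts say nothing about the members.

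Many small negative values changed sign with a covariate that itself followed treatment closely, and the cause was not tested. With the erythroid and then the neutrophil covariate the log2 fold changes were 0.0192 and 0.0397 for Sdhb, 0.114 and 0.123 for Uqcrfs1, 0.202 and 0.256 for Uqcrh, 0.0644 and 0.105 for Uqcrb, 0.025 and 0.0584 for Cox7a2l, 0.096 and 0.128 for Cox6a1 and 0.106 and 0.15 for Atp5h. They were 0.0321 and 0.0662 for Atp5f1, 0.108 and 0.135 for Cox4i1, 0.13 and 0.151 for Cox6b1, 0.102 and 0.169 for Cox7a1, 0.16 and 0.207 for Cox7a2, 0.121 and 0.15 for Cox8a, 0.146 and 0.206 for Ndufa4 and 0.127 and 0.149 for Atp5g2. With each library left out in turn, the log2 fold change ran from -0.0111 to 0.0577 for Sdha, -0.0167 to 0.0252 for Sdhc, -0.0335 to 0.0546 for Sdhd, -0.114 to 0.000646 for Cox6b1, -0.335 to 0.0487 for Cox7a1, -0.16 to 0.000567 for Cox7a2, -0.0504 to 0.0207 for Atp5g2 and -0.0411 to 0.0613 for Atp5g3. With library size alone Atp5g2 was at 0.0302. Atp5g3 was at -0.00205 with RLE factors, -0.0013 with a mean of at least 5 CPM and -0.00216 with DESeq2. Cox6b2 stayed positive in each of these fits, at 0.50 and 0.52 with the covariates (edgeR adjusted p 0.307 and 0.287).

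The log2 ratios of summed CPM with library size alone were 0.0333 for complex II, 0.0108 for complex III, 0.0229 for complex V and 0.000217 for all members, a scaling that moved the median of all genes to 0.04. With each library left out they ran from -0.0338 to 0.0116 for complex II, -0.081 to 0.0225 for complex III, -0.0562 to 0.00918 for complex V and -0.0852 to 0.00101 for all members. No paired analysis was possible because the numbers of the count columns are not those of the sample titles and the other tables hold no counts. No counts stand behind the values of p53null AML and of 72 h, so they have no replicate spread here and no library was left out. With 3 libraries a group, differences of a few percent in single genes were not detectable.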
